A study of Mus musculus with 112 samples.

Results

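Gene expression was compared between calorie restricted (CR) and control mice of B6C3F1/J, a first-generation hybrid of the inbred strains C57BL6/J and C3H/HeJ. The 16 B6C3F1/J arrays, of 112 in the series, were chosen by their titles, 8 from CR and 8 from control mice, with 1 mouse per array. All were male cerebral cortex. Mice were received at 6 weeks of age, lived 1 to a cage and ate 84 kcal per week up to 8 weeks, when the CR and control diets began, and brains were taken at 22 weeks once food had been withheld overnight. By the study's methods B6C3F1/J mice were given the same food as C3H/HeJ, CBA/J and DBA/2J mice, and their CR ration stayed the same throughout, whereas the CR mice of C57BL6/J and 129S1/SvImJ had a further cut partway and the Balbc/J ration was larger on either diet. The C57BL6/J, C3H/HeJ, 129S1/SvImJ, Balbc/J, CBA/J and DBA/2J mice used for comparison were also male, on a CR or a control diet with the rations just described. There were 8 arrays per strain and diet.

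A reduced food supply is known to alter metabolism in many tissues. In the brain, genes that follow the daily feeding rhythm, genes of protein folding in the endoplasmic reticulum and genes of synaptic activity are among those that can respond to feeding state. The circadian clock is a loop in which the activators CLOCK and BMAL1 bind E-boxes in DNA and drive genes of the repressors PER and CRY, while REV-ERB alpha, the product of Nr1d1, represses Bmal1.

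B6C3F1/J control replicate 8 stood apart from the other 15 arrays and was left out of all comparisons unless it is said to be kept. Gabra6, which encodes a GABA-A subunit typical of granule cells in the cerebellum, had a log2 signal of 12.3 in this array against 5.44 to 6.97 in the other 7 control arrays and 5.24 to 6.48 in the 8 CR arrays. Tbr1, which marks glutamatergic neurons of the cortex, was at 5.93 in it, against 9.62 to 10.2 in the other controls and 9.27 to 10.2 in CR mice. In total 1145 genes lay more than 1 log2 unit from the mean of the other 7 controls. C57BL6/J control replicate 6, which is also high in cerebellar genes, was left out of the fit as well.

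Markers of the other tissues varied between the remaining 15 arrays within both diets. The mean log2 signal of 9 genes of striatal medium spiny neurons, which lie beneath the cortex, ran from 8.43 to 10.7 in control and from 8.89 to 11.0 in CR mice, a range of 5.97-fold over the 15 arrays. It was over 10 in 3 control and 3 CR arrays. The mean of 9 genes of the choroid plexus, the epithelium that makes cerebrospinal fluid, ran from 6.66 to 7.67 in control and from 6.54 to 8.05 in CR mice, and 2 CR arrays lay above every control. Cerebellar genes were at 7.21 to 7.61 and 7.21 to 7.50, and excitatory neuron genes at 9.74 to 10.1 and 9.65 to 10.1. An array quality value, the spread of each array around the median array, ran from 0.158 to 0.244 in control and from 0.147 to 0.27 in CR mice. The highest values in each group were those of control replicate 7 and CR replicate 7.

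**Figure D1:**
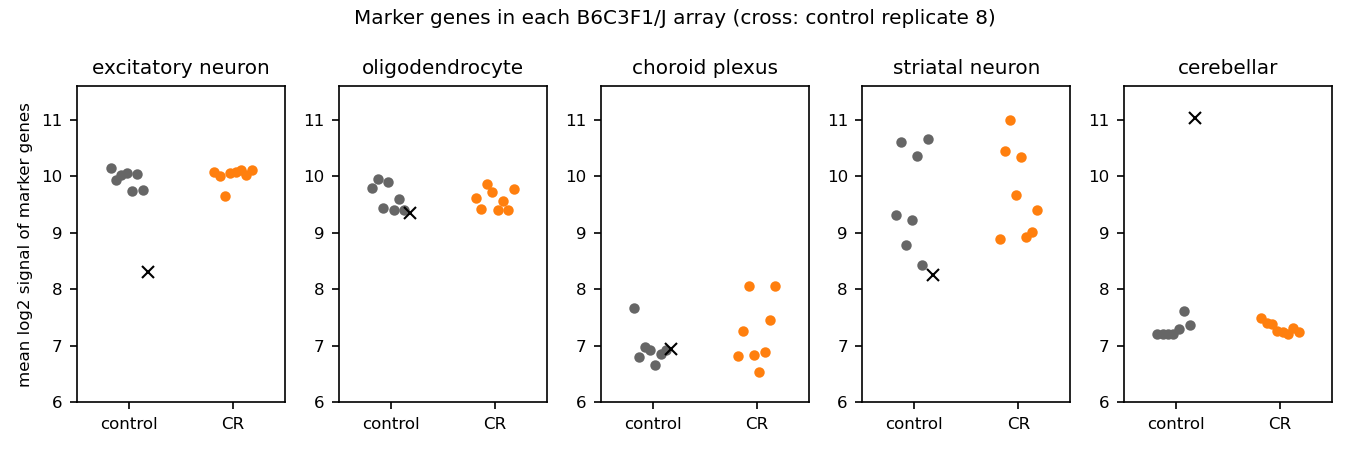
Mean log2 signal of 5 sets of marker genes (y axis) in each B6C3F1/J array, control in grey and CR in orange, with a cross for control replicate 8. The cross stands at 11.0 for cerebellar genes, where the other arrays lie between 7.21 and 7.61, and striatal genes spread from 8.43 to 11.0 over the other 15 arrays.

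The strain labels were checked with Gabra2, a GABA receptor subunit gene that is low in C57BL6/J. Its log2 signal was 9.53 ± 0.14 (SD) in C57BL6/J control, 10.5 ± 0.13 in C3H/HeJ control and 10.2 ± 0.17 in B6C3F1/J control mice. The hybrid arrays, at 9.97 to 10.4, lay above every C57BL6/J control array, the highest of which was at 9.65. They overlapped the C3H/HeJ controls, at 10.3 to 10.7, so Gabra2 set the hybrid arrays apart from C57BL6/J but not from C3H/HeJ. The C57BL6/J deletion in Nnt, a mitochondrial transhydrogenase gene, was not visible in its probe set, at 8.45 in C57BL6/J, 8.54 in C3H/HeJ and 8.50 in B6C3F1/J controls, so Nnt checked nothing here.

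The first comparison asked which genes differ between CR and control B6C3F1/J mice. Of 19938 genes tested with limma, 0 passed at an adjusted p under 0.05 (0%), and the lowest adjusted p was 0.504. At an unadjusted p under 0.05 there were 891 genes (4.47%), of which 444 (2.23%) were higher and 447 (2.24%) lower in CR mice, and 187 had a p under 0.01 (0.938%). Where no gene responds, the share expected by chance equals the threshold, and the shares of 4.47% and 0.938% lay below it. The methods' t-test on linear signal left 0 genes after Benjamini-Hochberg adjustment, with 132 at an unadjusted p under 0.01, the study's threshold, and 707 under 0.05. The median standard error of a difference was 0.065 log2 units, and for 86% of the genes the 95% confidence interval lay within a change of 20%. Both values cover all 19938 genes, with no filter on low signal, so genes of low signal are counted as well. Differences larger than 0.5 log2 units were estimated for 2 genes. These were the choroid plexus gene Ttr and Ifit3b, whose signal lay below the array medians, both described below. The genes named below are therefore those of smallest p and not genes shown to respond. That each mouse gave 1 array limits the precision to the number of mice. In whole tissue, fewer cells of a type and less RNA per cell cannot be told apart.

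Per2, the period gene of the clock's repressor arm, had the smallest p of all genes. Its log2 signal was 8.64 at the lowest, 8.83 at the median and 9.08 at the highest in control mice, and 9.10, 9.21 and 9.38 in CR mice. All 8 CR arrays lay above all 7 control arrays. The mean was higher in CR mice by 0.37 ± 0.085 log2 units (SE), or 29.5%, with a 95% interval of 0.21 to 0.54 and an adjusted p of 0.504. The difference was 0.37 with control replicate 8 kept, and 0.34 to 0.41 when any other array was left out. Across the other 6 strains Per2 rose by 0.18 ± 0.034 (adjusted p = 0.00026), and in C57BL6/J and C3H/HeJ the difference was 0.49 and 0.20. The hybrid's difference was larger than that mean by 0.19 ± 0.091, which did not pass (unadjusted p = 0.0368 by limma).

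A complete separation of the groups, with every CR array above or below every control array, was found in 5 of 19938 genes (0.0251%). Beside Per2 these were Dnaaf5, a factor that assembles the dynein arms of cilia, which was higher in CR mice, and Pkib, Kdelr1 and Rccd1, which were lower. The last 3 are named after their values were seen. Pkib, an inhibitor of protein kinase A, was at 7.04 to 7.19 in control and 6.77 to 7.01 in CR mice, a difference of -0.16 ± 0.049. Control replicate 8 had a Pkib signal of 8.61, and with it kept the difference was -0.35. Kdelr1, the receptor that returns chaperones to the endoplasmic reticulum, differed by -0.14 ± 0.046 and Rccd1 by -0.11 ± 0.043.

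The clock list held 20 measured genes, of which 3 were higher and 1 lower in CR mice at an unadjusted p under 0.05 and 0 passed the adjusted threshold. The median difference over the list was 0.046 log2 units (0.027 without control replicate 7, 0.030 without CR replicate 1) and 13 genes were higher, against a median of 0.003 and 51.8% of all genes. Cry1, the cryptochrome partner of PER2, had a log2 signal of 7.48, 7.69 and 7.79 (lowest, median and highest) in control and of 7.75, 7.83 and 8.01 in CR mice. The CR arrays were higher on the whole, with 6 of 8 above every control. The difference was 0.19 ± 0.053, or 14.1%, with an adjusted p of 0.881. Control replicate 8 had a Cry1 signal of 8.44, above every other B6C3F1/J array, and with it kept the difference was 0.09 (unadjusted p = 0.142 by limma). Nr1d1 was at 11.0, 11.1 and 11.4 in control and at 10.8, 10.9 and 11.2 in CR mice, and 4 of 8 CR arrays lay below every control. Its difference was -0.20 ± 0.077, or -12.7%, with an adjusted p of 0.999.

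All 3 of these clock genes were called across the other 6 strains, with Cry1 rising by 0.12 ± 0.021 (adjusted p = 0.000116) and Nr1d1 falling by 0.27 ± 0.031 on the log2 scale (adjusted p = 6.03e-10). For Cry1 the difference was 0.19 in C57BL6/J and 0.24 in C3H/HeJ, and for Nr1d1 -0.25 and -0.33. The hybrid differed from the mean of the other strains by 0.07 ± 0.057 for Cry1 and by 0.07 ± 0.083 for Nr1d1, neither of which passed the test. Of these genes Cry1 and Nr1d1 have a promoter window in RefSeq (build GRCm38.p6), from 250 bases before to 50 after the start of the gene. They are shown because the clock's activators bind the E-box CACGTG, whose letters are in capitals.
Cry1: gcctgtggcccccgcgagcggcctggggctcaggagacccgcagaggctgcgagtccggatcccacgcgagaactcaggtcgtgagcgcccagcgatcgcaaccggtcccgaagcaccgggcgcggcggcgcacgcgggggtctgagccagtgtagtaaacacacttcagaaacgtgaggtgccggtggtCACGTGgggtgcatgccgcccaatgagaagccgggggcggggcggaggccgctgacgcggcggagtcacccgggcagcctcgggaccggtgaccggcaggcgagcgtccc
Nr1d1: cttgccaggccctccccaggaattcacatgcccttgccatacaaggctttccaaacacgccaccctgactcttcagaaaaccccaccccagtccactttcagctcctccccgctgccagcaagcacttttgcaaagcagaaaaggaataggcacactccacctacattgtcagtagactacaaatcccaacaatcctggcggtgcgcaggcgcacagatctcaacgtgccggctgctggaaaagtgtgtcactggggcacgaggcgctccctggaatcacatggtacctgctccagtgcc
The Cry1 window lies at chr10:85185005-85185304 on the minus strand and holds 1 match, 60 bases before the start. The Nr1d1 window, at chr11:98775328-98775627 on the minus strand, holds 0 matches.

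Over the clock list 5 of the 17 genes with a window held CACGTG, namely Bhlhe41, Ciart, Cry1, Per1 and Tef, and 8.09% of the 27025 gene symbols with a window did. The motif reads the same on both strands. For the immediate early list the CRE letters TGACGTCA were found in 2 of 21 genes, Btg2 and Dusp1, against 2.03% of symbols. For the chaperones of the endoplasmic reticulum, CCACG, the conserved end of the ER stress element, was found on either strand in 15 of 17 genes against 35.5% of symbols. CCACG overlaps CACGTG where a C precedes the E-box. A match is a description of the letters and not evidence of binding.

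**Figure D2:**
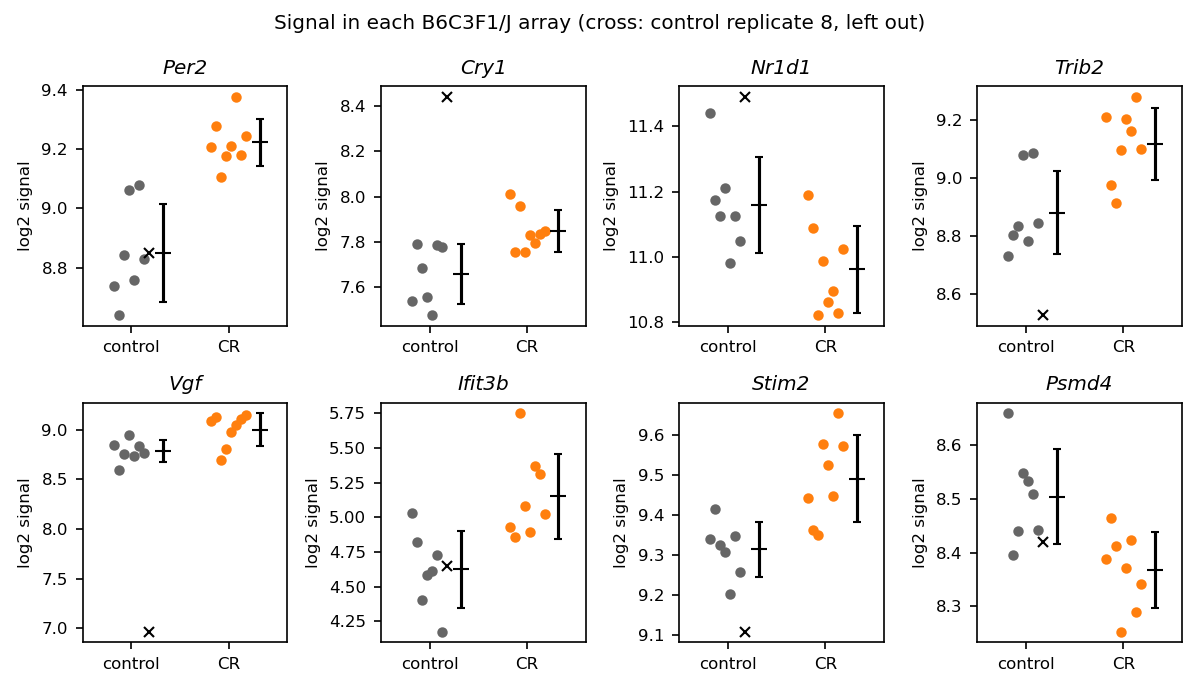
Log2 signal (y axis) of 8 genes in each B6C3F1/J array, control in grey and CR in orange, with the mean ± SD beside each group and a cross for control replicate 8, which is in neither mean. All CR arrays lie above all controls for Per2, and the groups overlap for the others; the cross is far from its group for Vgf, at 6.97, and Cry1, at 8.44.

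Of the genes higher in CR mice, those with the smallest p after Per2 had several roles. Trib2, a pseudokinase that promotes protein degradation, was at 8.73, 8.83 and 9.08 in control and at 8.91, 9.13 and 9.28 in CR mice, a difference of 0.24 ± 0.060 (adjusted p = 0.744). Stim2, a sensor of calcium in the endoplasmic reticulum, was at 9.20, 9.32 and 9.42 and at 9.35, 9.49 and 9.65, a difference of 0.18 ± 0.046. For both genes 6 of 8 CR arrays lay above every control. Vgf, the precursor of secreted neuropeptides that regulate energy balance, was at 8.60, 8.77 and 8.95 in control and at 8.70, 9.07 and 9.15 in CR mice. The groups overlapped, with 6 of 8 CR arrays above every control, and the difference was 0.22 ± 0.059, or 16.2%. It was 0.44 with control replicate 8 kept, where Vgf was at 6.97.

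Ifit3b, of the interferon-induced IFIT family, was at 4.18, 4.61 and 5.03 in control and at 4.86, 5.05 and 5.75 in CR mice, with 4 of 8 CR arrays above every control. The difference was 0.53 ± 0.134 log2 units. The signals of Ifit3b, Olfr988, Oas1c and Mbnl3 lay below the array medians of 7.14 to 7.26 on every array, and whether they were above background was not tested. Oas1c, of the oligoadenylate synthetase family and not in the interferon list used below, was higher by 0.25 ± 0.071. The others higher in CR mice were the olfactory receptor gene Olfr988 (0.35 ± 0.088), the splicing regulator Mbnl3 (0.28 ± 0.081), the zinc finger gene Zfp957 (0.23 ± 0.067), Dnaaf5 (0.15 ± 0.042) and the predicted gene Gm34583 (0.37 ± 0.106). Cry1, described above, completed the 12.

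The 12 genes lower in CR mice differed by -0.22 to -0.09 log2 units. Several encode enzymes of metabolism. Smox, spermine oxidase, was at 8.97, 9.20 and 9.42 in control and at 8.85, 9.01 and 9.03 in CR mice, a difference of -0.20 ± 0.056. The CR values lay at the lower end of the control range, and 3 of 8 were below it. Upp2, a uridine phosphorylase, differed by -0.17 ± 0.050, Hsd17b11, a dehydrogenase of lipid droplets, by -0.15 ± 0.046 and Idh2, the mitochondrial isocitrate dehydrogenase, by -0.14 ± 0.042. For Idh2 7 of 8 CR arrays lay below every control.

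Some of the rest were genes of signalling, degradation and adhesion. Pik3ip1, an inhibitor of PI3 kinase, was at 8.28, 8.31 and 8.38 in control and at 8.10, 8.20 and 8.36 in CR mice, a difference of -0.12 ± 0.035. Control replicate 8 had 9.13, and with it kept the difference was -0.22. Psmd4, the ubiquitin receptor of the proteasome, differed by -0.14 ± 0.040, Mmp14, a membrane-bound matrix metalloproteinase, by -0.18 ± 0.053 and Cntn1, a neuronal adhesion molecule, by -0.09 ± 0.029. Adck2 (-0.15 ± 0.041), Tmem18 (-0.17 ± 0.050), and the predicted genes Gm4983 (-0.22 ± 0.066) and Gm35339 (-0.18 ± 0.054) completed the list.

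Of the 24 genes, 20 had a difference of the same sign in the mean of the other 6 strains. Over all genes, the differences in B6C3F1/J had a correlation of 0.17 with those in that mean, where 4.14% of genes were called. Per2, Cry1, Ifit3b, Smox, Upp2 and Mmp14 were called there, with Ifit3b rising by 0.19 (adjusted p = 0.024), and Smox, Upp2 and Mmp14 falling by 0.09 (adjusted p = 0.0125), 0.09 (adjusted p = 0.00204) and 0.11 (adjusted p = 0.000672) on the log2 scale. The fit with control replicate 8 kept shares the 15 arrays that chose the 24 genes, so a kept sign there is not independent support. All 24 kept their sign in it, and 22 had an unadjusted p under 0.05. The exceptions were Cry1 and Hsd17b11, for which limma gave 0.0564.

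**Figure D3:**
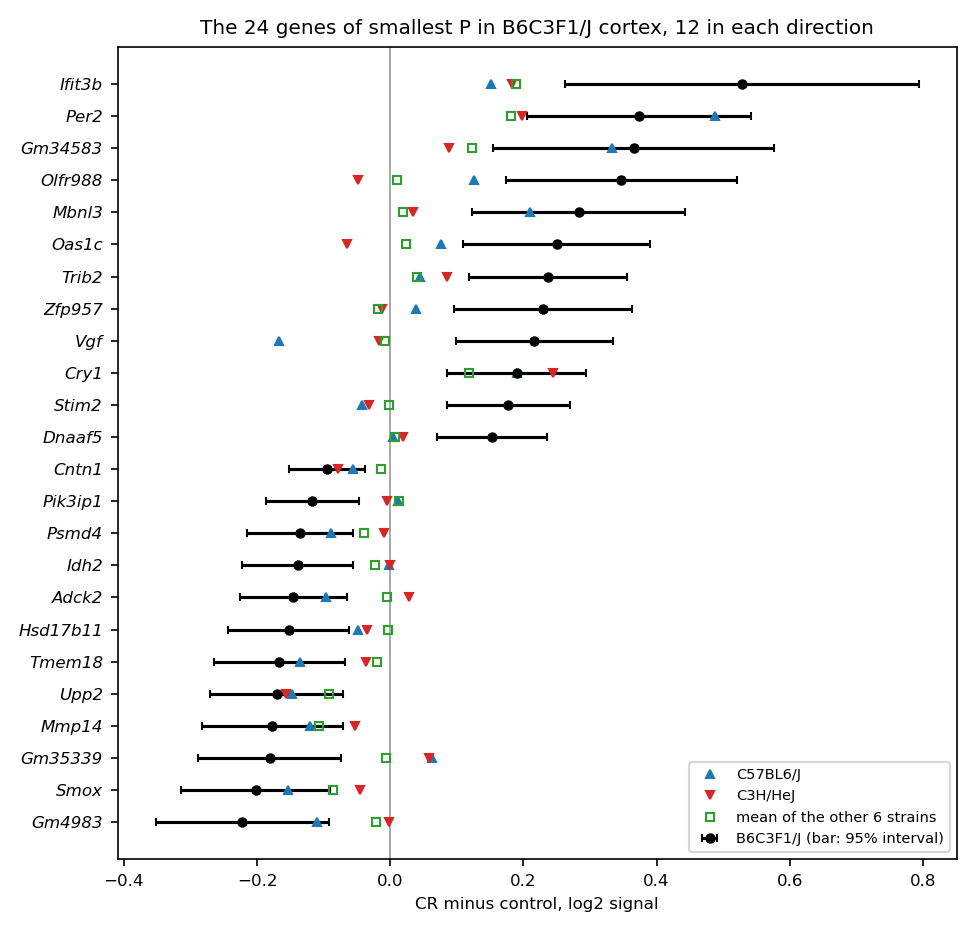
CR minus control in log2 signal (x axis) for the 24 genes of smallest p in B6C3F1/J, 12 higher and 12 lower in CR mice, as black points with 95% confidence intervals, beside the differences in C57BL6/J, C3H/HeJ and the mean of the other 6 strains. Per2 and Cry1 are higher in all 4, while Vgf and Stim2 are above 0 in B6C3F1/J and at or below 0 in the others. No adjusted p was under 0.05 in B6C3F1/J.

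With control replicate 8 kept, 0 genes passed in B6C3F1/J, but the lowest adjusted p was 0.0799 and 2067 genes had an unadjusted p under 0.05, of which 584 were among the 891 found without it. The difference changed sign in 3579 genes, or 18% of all. The genes of smallest p were then Trib2 (0.28), Per2 (0.37), Stim2 (0.20), Iqgap2 and Disp1. Iqgap2, a scaffold of the cytoskeleton, differed by 0.48 with and 0.31 without the array, and Disp1, which releases Hedgehog proteins, by 0.31 and 0.19. These last 2 genes are named after their values were seen.

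The 28 pathway lists held 585 measured genes, each counted once. Of these 0 passed, and 55 had an unadjusted p under 0.05, 17 higher and 38 lower in CR mice, or 9.4% against 4.47% of all genes. Among all genes above the median gene in mean signal the share was 5.22%. The lists were chosen with earlier results of these data known, so the shares are not an independent comparison. Genes of a list share regulation and are not independent, and no test of a list was made. The list medians ran from -0.066 to 0.066 log2 units.

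Genes of protein synthesis and energy supply had the lowest medians. Of 38 cytosolic ribosomal proteins 33 were lower in CR mice, with a median of -0.066, and 9 were lower and 0 higher at an unadjusted p under 0.05. Rps20, of the small subunit, differed by -0.16 ± 0.054, Rpl7, of the large subunit, by -0.17 ± 0.064 and Rplp1, of the stalk, by -0.14 ± 0.052. Across the other 6 strains the list's median was -0.019, and with control replicate 8 kept it was -0.047 in B6C3F1/J, with 2 genes lower at that p. Without CR replicate 7, the array of highest quality spread, it was -0.036 with 5 genes lower. Without control replicate 5 it was -0.045 with 5 genes lower, and without CR replicate 3 -0.095 with 13. Fitted on the 15 arrays alone, 4 were lower at that p, and 2 by the methods' t-test. Ribosomal protein genes have many near-identical copies in the genome, and how far their probe sets share signal was not examined.

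Of 31 subunits of oxidative phosphorylation 26 were lower, with a median of -0.036, and 7 were lower at an unadjusted p under 0.05, against a median of 0.007 in the other strains. Atp5j and Atp5o, of the ATP synthase, differed by -0.10 ± 0.034 and -0.13 ± 0.053 and Ndufb5, of complex I, by -0.13 ± 0.052. Without CR replicate 7 the median was -0.019 and without control replicate 6 -0.023, with 3 lower at that p in both cases, and without control replicate 7 it was -0.055. In the proteasome list 21 of 31 were lower, with a median of -0.017, and 5 were lower at that p, among them the core subunits Psmb6 (-0.16 ± 0.059) and Psma1 (-0.12 ± 0.051) beside Psmd4. With 1 array left out the proteasome median lay between -0.028 without CR replicate 1 and -0.0073 without control replicate 6, with 2 to 7 genes lower. Glycolysis had a median of -0.036 over 19 genes, which was -0.018 without CR replicate 7 and -0.023 without control replicate 1. Pkm, pyruvate kinase, differed by -0.08 ± 0.038 and Aldoa, aldolase, by -0.07 ± 0.038, while Pfkfb3, which makes the activator of phosphofructokinase, was higher by 0.18 ± 0.075.

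Interferon-induced genes had the highest median, 0.066 over 23 genes, of which 17 were higher in CR mice and 4 at an unadjusted p under 0.05. Beside Ifit3b, Gbp3, a guanylate-binding protein, was at 6.24, 6.47 and 6.61 in control and at 6.48, 6.65 and 6.84 in CR mice. It differed by 0.22 ± 0.074, and these signals, like those of Ifit3b, lay below the array medians of 7.14 to 7.26. Ifit3, a close relative of Ifit3b, differed by 0.26 ± 0.104, and its highest CR array was replicate 3, at 8.24. Without that array the list's median was 0.017 and 3 genes were higher at that p. Ifit3 and Ifit3b are near-identical copies whose probes may share signal. Across the other 6 strains the median was -0.012, though Ifit3 rose there by 0.24 (adjusted p = 5.58e-05). The mean of 11 microglial genes was 7.98 to 8.16 in control and 7.95 to 8.17 in CR mice.

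Chaperones of the endoplasmic reticulum had a median of 0.057 over 20 genes, 13 higher and 7 lower in CR mice. At an unadjusted p under 0.05, 1 was higher, Manf, a secreted protein induced by misfolding (0.15 ± 0.063), and 1 lower, the disulfide isomerase Txndc5 (-0.11 ± 0.052). The oxidase Ero1a differed by 0.08 ± 0.042. The count of 1 higher was 6 without CR replicate 2 and 6 without control replicate 6. The median was 0.027 without control replicate 1 and 0.091 without CR replicate 2. In the other 6 strains, where 4.14% of all genes were called in either direction, the median was 0.073 and 12 of the 20 were called, all higher in CR mice. Manf rose there by 0.09 (adjusted p = 0.032).

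Among genes of neuronal signalling, of 22 neuropeptides and granins 16 were higher, with a median of 0.049 (0.026 without control replicate 5 and 0.033 without CR replicate 5), and beside Vgf none had an unadjusted p under 0.05. Sst, somatostatin of inhibitory neurons, differed by 0.15 ± 0.075 and Scg5, a chaperone of peptide processing, by -0.09 ± 0.046. The immediate early list, of genes that follow neuronal activity, had a median of 0.027 over 26 genes, with 3 higher and 2 lower at that p. The median had no stable sign, at -0.038 without control replicate 5, -0.021 without control replicate 7 and -0.045 with array weights, and 0.075 without control replicate 4. Homer1, a postsynaptic scaffold with an activity-induced short form, was at 10.2, 10.4 and 10.7 in control and at 10.4, 10.8 and 11.0 in CR mice, a difference of 0.27 ± 0.099. Klf4, a transcription factor, differed by 0.16 ± 0.068 and Gadd45b, a stress-induced gene of DNA demethylation, by -0.21 ± 0.089. Of 26 genes of glutamate receptors and postsynaptic scaffolds 2 were higher at that p, Homer1 and Homer3 (0.13 ± 0.058), and the median of 0.004 lay between -0.0083 and 0.016 with 1 array left out.

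With control replicate 8 kept, the medians of these 3 lists were 0.164, 0.152 and 0.094, and the excitatory neuron genes had a median difference of 0.31 against 0.057 without it. Homer3 was lower in CR mice in that case, by -0.13.

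Glucocorticoid-induced genes had a median of -0.035 over 19 genes, of which 14 were lower and 4 at an unadjusted p under 0.05. The list's median was 0.022 in the mean of the other strains, 0.19 in C57BL6/J and -0.028 in C3H/HeJ. Nfkbia, an inhibitor of NF-kappa-B, was at 8.21, 8.31 and 8.51 in control and at 7.94, 8.16 and 8.27 in CR mice, a difference of -0.21 ± 0.084, with 7 of 8 CR arrays below every control. Sult1a1, a sulfotransferase, differed by -0.19 ± 0.085 and Mt1, a metallothionein, by -0.17 ± 0.078. The median was -0.079 with control replicate 8 kept, with 6 genes lower at that p, -0.072 without CR replicate 3 and -0.022 without CR replicate 7. With 1 array left out the count of 4 lay between 1, without CR replicate 1, control replicate 4 or control replicate 5, and 5. Sgk1, a kinase induced by glucocorticoids, differed by -0.22 ± 0.113 in B6C3F1/J and by 0.12 in the other strains, and the hybrid's difference from that mean had an unadjusted p of 0.00543 by limma and did not pass over all genes.

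In the list of insulin, IGF and FoxO signalling, which carries the signal of nutrient supply, 1 of 26 genes was higher and 2 lower at an unadjusted p under 0.05, with a median of 0.002. The genes were the receptor substrate Irs2 (0.15 ± 0.068), Klf15, a regulator of fasting metabolism (-0.14 ± 0.060), and Sgk1. Of 18 mTOR genes 10 were higher and 8 lower, with a median of 0.004. At that p 1 was lower, Sesn1, an inhibitor of mTOR (-0.11 ± 0.052), and 0 were higher. Of 15 genes of sirtuins and NAD 10 were higher and 5 lower, with a median of 0.028 (-0.018 with control replicate 8 kept). At that p 2 were lower, the mitochondrial Sirt4 (-0.14 ± 0.050) and Parp1, which consumes NAD (-0.08 ± 0.036), and 0 were higher. Of 16 neurotrophic factors and receptors 10 were higher and 6 lower, with a median of 0.016. At that p 0 were higher and 2 lower, Gdf11, a TGF-beta family ligand (-0.18 ± 0.065), and the receptor Fgfr3 (-0.11 ± 0.048). Both were called lower across the other strains (adjusted p = 0.000404 and 0.0225).

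**Figure D4:**
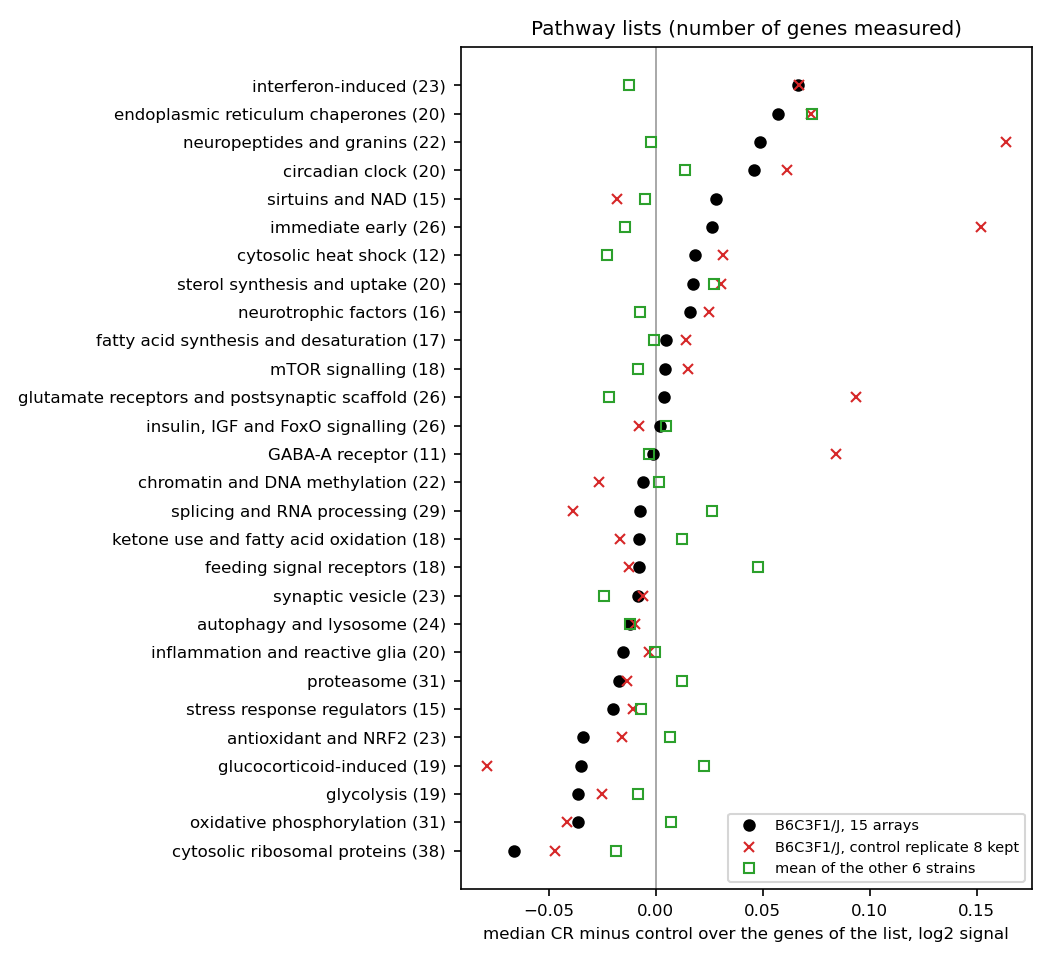
Median CR minus control in log2 signal (x axis) over the genes of each of 28 pathway lists, with the number of genes measured in brackets, in B6C3F1/J without control replicate 8 (black), with it kept (red crosses) and in the mean of the other 6 strains (green squares). The B6C3F1/J medians run from -0.066 for ribosomal proteins to 0.066 for interferon-induced genes, and the crosses lie far to the right for neuropeptides, immediate early genes and glutamate receptors.

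All 9 measured choroid plexus genes had higher means in CR mice, with a median difference of 0.178, and 0 had an unadjusted p under 0.05. Ttr, the transthyretin gene of this epithelium, was at 7.54, 10.1 and 12.4 in control and at 8.06, 10.8 and 12.8 in CR mice, a difference of 0.92 ± 0.712. Sostdc1 and Calml4 differed by 0.36 ± 0.271 and 0.16 ± 0.129. The ranges of the 2 diets overlapped for all 3 genes. The list's median was 0.076 without CR replicate 8 and 0.098 without CR replicate 3, the 2 arrays above every control, and 0.161 with control replicate 8 kept, when 8 of 9 genes were higher. The striatal genes had a median difference of 0.057, which lay between -0.12 without CR replicate 3 and 0.22 without control replicate 2.

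When the means of striatal and oligodendrocyte genes were added to the fit as covariates, an alternative added after seeing the data, 1 gene was called in B6C3F1/J. This was Fa2h, the fatty acid hydroxylase of myelin lipids, at 0.24 ± 0.046 log2 units (adjusted p = 0.02). With 6 sets of region markers as covariates its adjusted p was 0.0372. Without covariates Fa2h was at 8.57, 8.89 and 9.25 in control and at 8.78, 9.14 and 9.25 in CR mice, a difference of 0.20 ± 0.106 with an adjusted p of 0.999. It is named after its values were seen. Per2 differed by 0.38 in both of these fits (adjusted p = 0.153 and 0.155).

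The second comparison asked whether the hybrid's CR effect differs from that of the other 6 strains. For 0 of 19938 genes (0%) did it differ from their mean effect at an adjusted p under 0.05, and 790 had an unadjusted p under 0.05 (3.96%). The median standard error of this difference was 0.070 log2 units. The 6 genes of smallest p were H2bc22, Tesk1, Vps9d1, Sox21, Stim2 and Olfr988. H2bc22, a histone H2B gene, differed by 0.20 in B6C3F1/J and by -0.04 in the other strains, a gap of 0.24 ± 0.066. Tesk1, a kinase of the actin cytoskeleton, differed by 0.08 and -0.07, a gap of 0.15 ± 0.042, and it was called lower across the other strains (adjusted p = 0.002). Vps9d1 had 0.07 and -0.09, and Sox21, a transcription factor of neural progenitors, 0.12 and -0.05. None of these passed over all genes.

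The third comparison set the hybrid beside its parental strains. Against the mean of C57BL6/J and C3H/HeJ, 0 genes differed at an adjusted p under 0.05 (0%), and 839 had an unadjusted p under 0.05 (4.21%). Vgf had the smallest p. It differed by 0.22 in B6C3F1/J, by -0.17 in C57BL6/J and by -0.02 in C3H/HeJ, a gap of 0.31 ± 0.072 (adjusted p = 0.885). Flot2, a scaffold of membrane rafts, differed by 0.10 in the hybrid and by -0.19 and -0.09 in the parents, a gap of 0.24 ± 0.060. Rtn4rl1, a receptor of the Nogo family, differed by 0.12 against -0.18 and -0.13. Stim2, Tesk1 and Gm35339 followed, with gaps of 0.21 ± 0.056, 0.18 ± 0.048 and -0.24 ± 0.066. The CR arrays of C57BL6/J came from mice with a further cut in food, so strain and food cannot be told apart in that parent.

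In C57BL6/J 72 genes were called in the same fit and in C3H/HeJ 0. Of the 72, 21 were higher and 51 lower in CR mice of C57BL6/J. In B6C3F1/J 52 had the same sign (72.2%), where 51.8% of all genes were higher and 48.2% lower. The median difference of the 72 in the direction of C57BL6/J was 0.037 in B6C3F1/J and 0.23 in C57BL6/J. The C57BL6/J values chose these genes. Over all 19938 genes, which are not independent, the differences in B6C3F1/J had a correlation of 0.17 with those in C57BL6/J and of 0.003 with those in C3H/HeJ, from separate mice.

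The last comparison followed the genes that responded elsewhere. Across the other 6 strains 825 genes (4.14%) were called, 320 higher and 505 lower in CR mice. In B6C3F1/J 592 of them had the same sign (71.8%), 249 of the 320 higher (77.8%) and 343 of the 505 lower (67.9%). Of all genes, 51.8% were higher and 48.2% lower in B6C3F1/J. The median difference of the 825 in the called direction was 0.027 log2 units, against 0.078 in the strains whose values chose the genes. At an unadjusted p under 0.05, 84 of the 825 had the same sign (10.2%) and 3 the opposite sign, and 0 passed over all genes. At that p 2.23% of all genes were higher and 2.24% lower. The 825 genes are not independent. With control replicate 8 kept, 551 genes were called across the other strains and 64.6% had the same sign. The called set also depended on C57BL6/J control replicate 6. With that array kept 452 genes were called, 226 higher and 226 lower, and with all 112 arrays 350, 184 higher and 166 lower.

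The same count was made for each strain in turn, with genes called over the remaining 6, so that the gene lists differ. The share of the same sign was 71.8% in B6C3F1/J, 71.0% in C57BL6/J and 64.3% in C3H/HeJ, and 78.0% to 85.1% in 129S1/SvImJ, Balbc/J, CBA/J and DBA/2J. The median difference in the called direction was 0.027 in B6C3F1/J, 0.041 in C57BL6/J, 0.020 in C3H/HeJ and 0.037 to 0.064 in the others. These shares were not tested against each other, and the rations also differed between strains.

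The 825 genes were also summed up in each B6C3F1/J array, as the mean of the genes called higher minus the mean of those called lower, with each gene taken relative to its control mean. This score was -0.21 at the lowest, 0.033 at the median and 0.088 at the highest in control mice and -0.13, 0.078 and 0.19 in CR mice. The groups overlapped over most of their range. Control replicate 8, left out of these values, had a score of 0.27, above every CR array, and with it kept the mean score was 0.034 in control and 0.070 in CR mice.

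**Figure D5:**
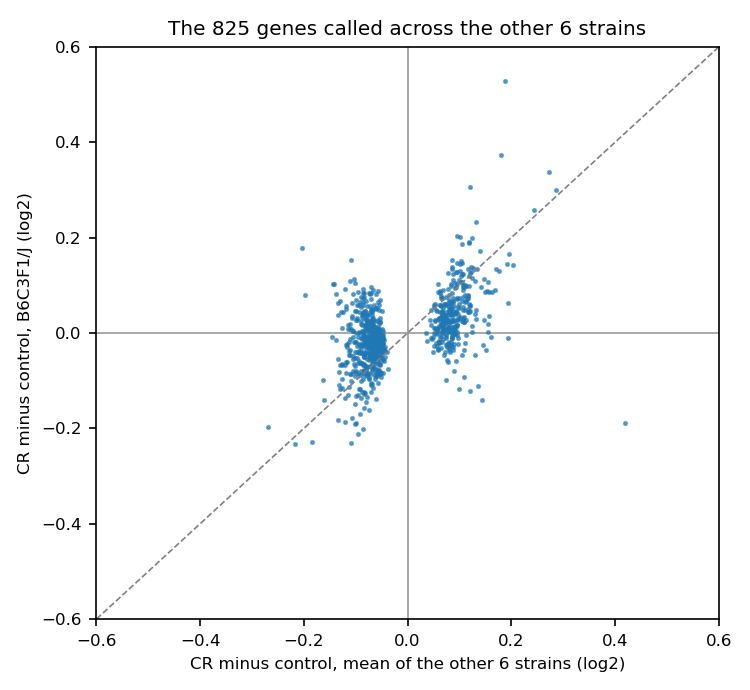
CR minus control in log2 signal in B6C3F1/J (y axis) against the mean of the other 6 strains (x axis) for the 825 genes called across those strains, 1 point per gene, with a dashed line of equality. The points form 2 clouds left and right of 0 because the x axis chose them, and 592 of 825 lie on the same side of 0 on both axes, most of them closer to 0 on the y axis.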

How the data were processed

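The deposited values are log2 signals that the authors made from Affymetrix Mouse Gene 1.0 ST arrays with Expression Console (gene-level RMA-Sketch, versions not given in the sources used here), which corrects background, normalizes by quantiles and summarises probe sets. Any change common to every gene on an array is lost in this step. Of 35556 probe sets, 21789 had exactly 1 platform symbol, 1621 had several and 12146 are unnamed here. Each gene was read from its brightest probe set, judged by the mean of all 112 arrays, which left 19938 genes, with no filter on low signal. Array medians were 7.14 to 7.26, and 0 array pairs held identical values.

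A model with a mean for each of 14 strain and diet groups was fitted to 110 arrays with limma 3.58.1 in R 4.3.3 (two-sided, with 96 degrees of freedom from the residuals and 4.99 from the prior), so the spread was estimated over all strains. B6C3F1/J control replicate 8 and C57BL6/J control replicate 6 were left out. Calls were made at 0.05 after Benjamini-Hochberg adjustment across the 19938 genes. The fit was tested on simulated data. Files were read with the package data.table (1.17.8), and Python 3.11.15 with pandas 2.3.3 and matplotlib 3.10.9 gave motifs and plots.

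Named genes were the 12 of smallest p in each direction, 6 for each difference between strains, up to 3 per list by smallest p, and Nnt, Gabra2, Gabra6 and Tbr1 as checks. The comparison, the 28 pathway and 15 marker lists and the tests were chosen with earlier results of these data known. Alternatives changed the arrays kept, normalization, gene filter, probe set rule, covariates, array weights and test. Sequences came from RefSeq, in windows of 250 bases before to 50 after a start.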

Additional observations from a re-analysis of the deposited data

Results flagged for a closer look

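Arrays that stood apart from their own group were looked for in 167 group values of the genes and marker sets named above, by the gap to the nearest array over the group's range. There were 23, and chance alone gives about 1 in 20. The mean of cerebellar genes over all 8 control arrays was highest in replicate 8, at 11.0, with the next array at 7.61, and Gabra6, at 12.3, was in this array far above the other controls, at most 6.97. Without it, control replicate 6 was highest for the mean of cerebellar genes (7.61) and for Gabra6 (6.97), and CR replicate 1 was highest for Gabra6 in its group (6.48).

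CR replicate 3 was lowest for Tbr1 (9.27), Gm34583 (8.94) and Pkib (6.77) and highest for Ifit3 (8.24). CR replicate 7 was lowest for Ndufb5 (9.51), Parp1 (8.25) and Kdelr1 (9.27). Among the other CR arrays, replicate 1 was highest for Fgfr3 (9.52), replicate 5 lowest for Fa2h (8.78) and replicate 8 lowest for Rccd1 (7.56).

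Control replicate 1 was highest for Adck2 (7.66), Pkm (11.5), Aldoa (12.6), Sostdc1 (7.81) and the mean of choroid plexus genes (7.67). In the other controls, replicate 3 was highest for Olfr988 (5.34), replicate 5 lowest for Dnaaf5 (7.61) and highest for Rps20 (11.8), and replicate 7 lowest for Tmem18 (8.74).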

How the results depend on the processing

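The number of genes called for the CR effect in B6C3F1/J stayed at 0 in all alternatives except with striatal and oligodendrocyte covariates, where 1 gene was called, and with 6 sets of region markers, where 1 was called. Both were added after seeing the data. For the differences from the other 6 strains and from the parental strains it was 0 in all alternatives. Leaving out each of the 15 B6C3F1/J arrays in turn gave 0 called genes in each comparison, with a lowest adjusted p of 0.114 or more for the CR effect, 0.468 for the other strains and 0.063 for the parents. The number of genes at an unadjusted p under 0.05 was 891, between 646 (without CR replicate 7) and 1149 (without CR replicate 3) when 1 array was left out, 2067 with control replicate 8 kept, 1521 with all 112 arrays, 520 of 9969 (5.22%) with only genes above the median gene and 16 against a change of 1.1-fold. With the B6C3F1/J arrays fitted alone, that number was 703 without and 610 with control replicate 8. The methods' t-test on the 15 arrays found 136 genes at p under 0.01 on log2 signal and 132 on linear signal, and 0 after Benjamini-Hochberg adjustment. The labels do not say that a replicate number marks a shared litter or day. The deviations of same-numbered control and CR arrays had correlations from -0.25 to 0.39, over 0.1 in 5 of 7 pairs, and 3 of 7 controls correlated best with their own number. With a replicate block in each strain, 0 genes were called and 990 had an unadjusted p under 0.05. The share of genes of the same sign among those called elsewhere was 64.6% with B6C3F1/J control replicate 8 kept, 75.4% with C57BL6/J control replicate 6 kept, 80% with all 112 arrays and 75.9% with these and a cerebellar covariate.

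Of 2831 values of 77 named genes under the alternatives, 14 had the opposite sign. With control replicate 8 kept, Gabra2 was at 0.084 and Homer3 at -0.13, the same with all 112 arrays and with the 16 B6C3F1/J arrays alone. Tbr1 was at -0.0065 with the replicate block and at -0.044 to 0.12, and Gabra6 at -0.20 to 0.13, with 1 array left out. The 24 genes kept their sign in all 879 values, with adjusted p between 0.0799 and 1. These genes were chosen by their p in nearly the same arrays as the alternatives used, so the kept sign is not independent support.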

Other observations

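The median difference over all genes was 0.003 log2 units. Sterol synthesis and uptake had a median of 0.018 over 20 genes, with 13 higher in CR mice, fatty acid synthesis and desaturation 0.005 over 17 genes, cytosolic heat shock genes 0.018 over 12 and receptors for feeding signals -0.008 over 18, and in none of these lists did a gene have an unadjusted p under 0.05. The same was true of ketone use and fatty acid oxidation (-0.008 over 18 genes), autophagy and lysosome genes (-0.012 over 24), GABA-A receptor subunits (-0.001 over 11) and synaptic vesicle genes (-0.008 over 23). Among antioxidant genes Gclc, an enzyme of glutathione synthesis, differed by -0.10 ± 0.044 and Mt1 by -0.17 ± 0.078, and 15 of 23 were lower in CR mice, with a median of -0.034 (0.0092 without CR replicate 7). In the astrocyte list S1pr1, a sphingosine phosphate receptor, was higher by 0.13 ± 0.048 and Fgfr3 lower by -0.11 ± 0.048, and both were called in the same direction across the other 6 strains (adjusted p = 0.000916 and 0.0225).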
